A study of Mus musculus with 36 samples.

Results

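The collagen genes encode the chains of the main structural proteins of the extracellular matrix that surrounds muscle fibers, nerves, vessels and tendons. Here they are the 37 listed collagen chains whose Ensembl IDs were found in the count tables of both muscles, of 51912 IDs in each table. They were chosen by gene name and grouped as 11 fibrillar chains, 8 basement membrane chains, 5 type VI chains and 13 other chains.

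Collagens are secreted as trimers of chains wound into a triple helix. Fibrillar collagens align into the fibrils that give connective tissue its tensile strength, and types V and XI sit inside those fibrils and start their assembly. Type IV chains form the meshwork of the basement membrane that wraps each myofiber, and type VI chains form beaded filaments between that sheet and the surrounding fibrils. Collagens such as Col12a1, Col14a1 and Col22a1 bind to fibril surfaces or to tissue borders, and in skeletal muscle collagen RNA comes largely from fibroblasts, tendon cells and vessel cells.

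RNA-seq was done on whole soleus and tibialis anterior (TA) muscles of male C57BL/6 mice aged 3 months, with 9 libraries in each of 4 groups, both muscles having been taken from WT and from ∆Ig3-MuSK mice. The soleus is a slow and the TA a fast muscle. The ∆Ig3-MuSK mice were homozygous for a germline CRISPR-Cas9 deletion of the exons that encode the BMP-binding Ig3 domain of MuSK (muscle-specific kinase), so every cell of the animal carried it, and the WT mice carried no engineered allele. The labels name the NEBNext Ultra kit for all soleus and the Ultra II kit for all TA libraries, so that muscle and library kit cannot be told apart in any comparison of soleus with TA.

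Total counts per library ran from 43492062 to 78660422, and levels are given as CPM (counts relative to library size) scaled with TMM factors (trimmed mean of M-values, a correction for RNA composition) of a fit over all 36 libraries. Slow and fast fiber markers separated the muscles as labelled, with Myh7, the slow myosin, at a log2 fold change of 10.33 ± 0.55 in WT soleus over WT TA. The level of Musk, the targeted gene, was 12.5, 14.7 and 18.4 CPM in WT soleus and 8.07, 10.5 and 17.5 CPM in ∆Ig3-MuSK soleus (lowest, median and highest of 9 libraries), a log2 fold change of -0.44 ± 0.13 (adjusted p = 0.0978), and 2.87, 3.81 and 5.58 CPM in WT TA and 2.62, 3.08 and 4.01 CPM in ∆Ig3-MuSK TA, a log2 fold change of -0.46 ± 0.12 (adjusted p = 0.135). DESeq2 and limma-voom, run as alternatives, called Musk lower in the soleus (adjusted p = 0.0417 and 0.0371) and in the TA (adjusted p = 0.0248 and 0.0275). These counts pool all exons and do not show the deletion itself, so that they do not check the genotype labels, and every direction below is that of the labels as deposited. Several libraries stood apart for collagens. WT TA replicate 9 was the highest of its group for 25 of the 37 chains, WT soleus replicate 7 was the highest for 19, and ∆Ig3-MuSK soleus replicates 8 and 2 were the lowest for 16 and 15. Replicate 8 of the ∆Ig3-MuSK soleus also held 24.7 CPM over 8 tendon markers, against a median of 347 CPM in its group. For some chains the soleus estimate without WT replicate 7 or ∆Ig3-MuSK replicate 8 is given as well.

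The bases just before the transcription starts of 30 of the 37 chains are held in RefSeq promoter windows (assembly GRCm38.p6). The 3 printed here are of fibrillar chains whose 250-base window lies wholly before the annotated gene, and they show how much such windows differ in base composition and motif matches. Capitals mark every match, on either strand, to 4 short motifs. These are the GC box, spelled GGGCGG, and the box named CCAAT after its letters. The other two are the SMAD-binding element, spelled CAGACA, and the TATA element, searched as the letters TATAA. The windows are Col3a1 at chr1:45311288-45311537, Col5a1 at chr2:27886175-27886424 and Col11a1 at chr3:114030290-114030539, all on the plus strand.
Col3a1: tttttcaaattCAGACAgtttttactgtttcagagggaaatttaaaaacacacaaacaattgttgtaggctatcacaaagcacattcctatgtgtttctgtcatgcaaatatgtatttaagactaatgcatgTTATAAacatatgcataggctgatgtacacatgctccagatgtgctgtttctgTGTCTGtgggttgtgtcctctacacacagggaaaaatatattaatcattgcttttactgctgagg
Col5a1: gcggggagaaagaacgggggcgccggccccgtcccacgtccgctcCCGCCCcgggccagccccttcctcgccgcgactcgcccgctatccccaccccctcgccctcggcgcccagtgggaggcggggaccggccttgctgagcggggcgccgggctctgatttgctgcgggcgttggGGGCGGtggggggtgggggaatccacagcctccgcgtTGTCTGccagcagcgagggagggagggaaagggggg
Col11a1: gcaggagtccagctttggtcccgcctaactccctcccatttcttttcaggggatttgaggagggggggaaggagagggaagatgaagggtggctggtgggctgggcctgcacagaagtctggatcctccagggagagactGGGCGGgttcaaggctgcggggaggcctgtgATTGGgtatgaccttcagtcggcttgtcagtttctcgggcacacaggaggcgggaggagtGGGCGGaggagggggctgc

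GGGCGG was found in 65.6% of the 32 collagen windows and in 32.7% of all 32851 windows, CCAAT in 31.2% and 33.8%, CAGACA in 28.1% and 17.1%, and TATAA in 9.38% and 22.8%. The median GC content was 60.0% in the collagen windows and 52.4% in all windows. In Col3a1 the window held no GC box, a pair of CAGACA matches and overlapping TATAA matches on both strands, with a GC content of 35.2%. In Col5a1 it held 2 GC boxes and 1 CAGACA match at a GC content of 76.4%, and in Col11a1 it held 2 GC boxes and 1 CCAAT match. These matches describe letters in a window and were not tied to the measured levels.

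In the soleus, the data showed lower estimates for most collagen chains in ∆Ig3-MuSK than in WT, but no single chain passed the test. Of 37 chains, 34 had enough counts to be tested; Col4a6, Col6a5 and Col19a1 did not. A gene was called at an adjusted p under 0.05 and a change of at least 1.2-fold, by the quasi-likelihood test of edgeR, with p-values adjusted over all 19439 genes tested (Benjamini-Hochberg), and every adjusted p of a single gene below comes from this test in the comparison named. None of the 34 chains was called, where 0.952% of all genes were. At an unadjusted p under 0.05, 21 chains were lower and 0 higher, beside 10.1% of all genes lower and 8.48% higher. The estimate was below 0 for 31 of the 34 chains, against 50.6% of all genes, and the median log2 fold change was -0.45 over the chains and -0.0017 over all genes. The same comparison by DESeq2, the tool of the study, called 3 chains lower (Col1a1, Col4a1 and Col4a2), where it called 324 of 39040 genes lower. Those 39040 are all genes given a p-value, before any filter on low counts. That share is therefore not comparable with one over 19439 genes. Limma-voom with quality weights called 4 lower (the same 3 and Col9a2), where it called 390 of 19439 genes lower. With WT soleus replicate 7 and ∆Ig3-MuSK soleus replicate 8 both left out, an alternative chosen after seeing the data, 0 chains were called, 17 were lower at an unadjusted p under 0.05 and the median was -0.33. Of 19444 genes in that fit, 43 were called lower and 1667 were lower at that p. Calls also appeared when 1 library was left out: 7 chains without WT soleus replicate 1, 4 without WT soleus replicate 2 and 3 without ∆Ig3-MuSK soleus replicate 7. Counts over all genes were not taken for fits that left out 1 library. Fewer cells of a type and less RNA per cell cannot be told apart in whole muscle.

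The 21 chains with an unadjusted p under 0.05 were spread over all classes: 9 of 11 fibrillar, 4 of 7 basement membrane, 3 of 4 type VI and 5 of 12 other chains tested. Median log2 fold changes were -0.70 for fibrillar, -0.39 for basement membrane, -0.48 for type VI and -0.41 for other chains. For no chain were the groups fully apart, where 0.0772% of all genes had groups that did not overlap. In 12 of the 34 chains all 9 ∆Ig3-MuSK libraries lay below the WT median, beside 4.39% of all genes tested, and at most 7 of the 9 lay below the lowest WT library.

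**Figure D1:**
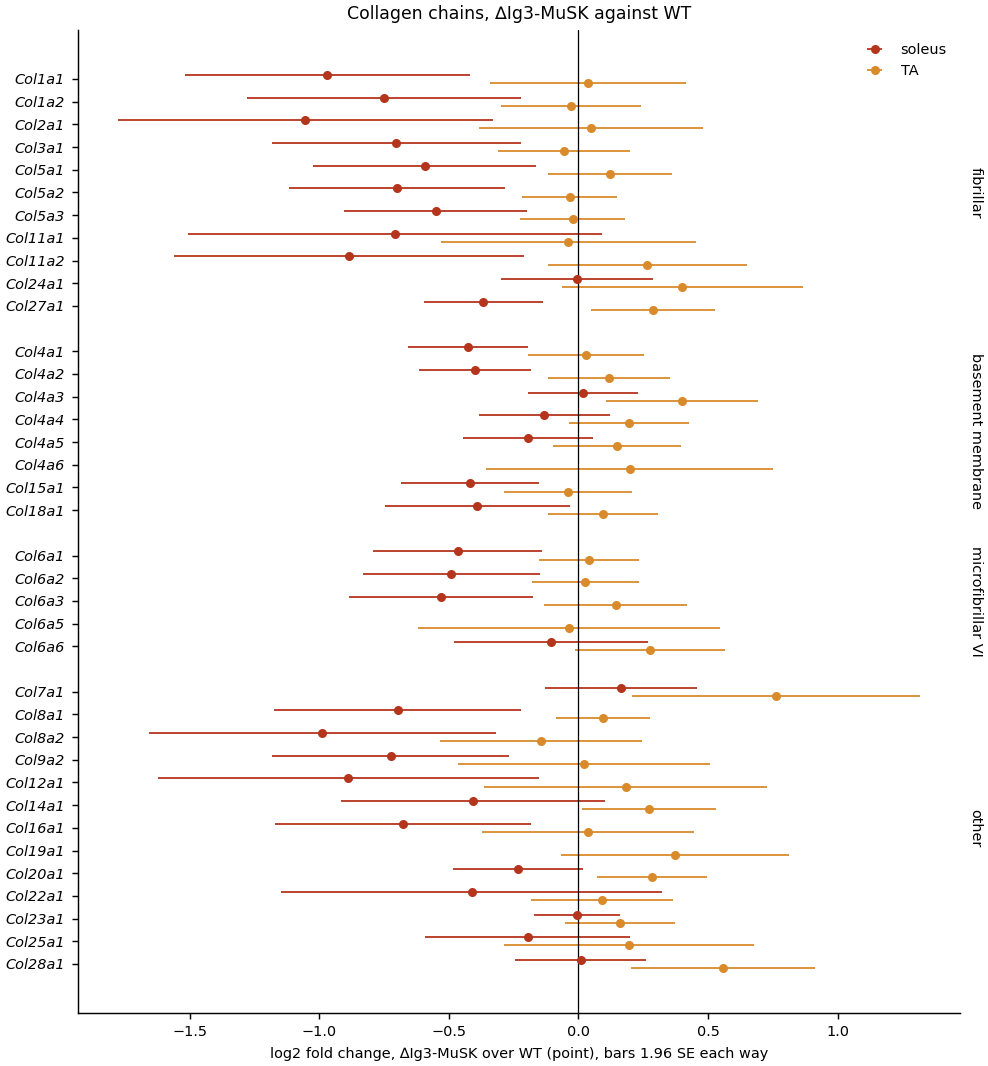
Log2 fold change of each collagen chain in ∆Ig3-MuSK over WT (x axis, log2 units; points, edgeR estimate; bars, 1.96 SE each way; 9 libraries per group) in the soleus (red) and TA (orange), with chains grouped by class on the y axis and no point where a chain was not tested. In the soleus, 31 of 34 points lie below 0, while in the TA 29 of 37 lie above 0.

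In the TA, the estimates lay above 0 for 29 of 37 chains, while 50.7% of all genes lay below 0, and no chain passed the test. All 37 chains were tested and 0 were called, where 0.0149% of 20075 genes were, and DESeq2 and limma-voom called 0 as well. Over all genes, DESeq2 called 169 higher and 68 lower, and limma-voom 120 higher and 30 lower. At an unadjusted p under 0.05, 5 chains were higher (Col4a3, Col7a1, Col20a1, Col27a1 and Col28a1) and 0 lower, beside 12.2% of all genes higher and 12% lower. The count of 5 became 10 without WT TA replicate 9. The median log2 fold change was 0.12 over the chains.

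The difference between the muscles in the genotype effect was itself tested, as the interaction of genotype and muscle over all 36 libraries. A difference due to the library kit that is equal in both genotypes cancels in this term. No chain was called among 20841 genes tested, of which 0% were called, and the smallest adjusted p among chains was 0.0978 for Col27a1, with an estimate of -0.64 ± 0.17. At an unadjusted p under 0.05, 22 of 37 chains were lower and 0 higher, beside 11.2% of all genes lower and 13.7% higher. The estimate was negative for 36 of 37 chains, against 50.3% of all genes, with a median of -0.52. DESeq2 called 3 chains lower in this term (Col4a2, Col6a3 and Col8a1). It called 277 genes lower and 578 higher among 41704 given a p-value before any filter on low counts. Limma-voom called 0 chains, where it called 4 genes lower and 5 higher among 20841. The count of 22 became 12 without WT soleus replicate 7, and 6 chains were called without WT TA replicate 9. Counts over all genes were not taken with 1 library left out. The interaction is built from the libraries of both genotype comparisons and is not further evidence beside them. The sample labels also carry numbers, 8 of which recur in both muscles of each genotype. Nothing states that these are the same animals, and the fits treat the 36 libraries as independent. With the number as a random block in limma-voom, 0 chains were called in the interaction and 25 were lower at an unadjusted p under 0.05. In that fit 2893 of 20841 genes were lower at that p.

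**Figure D2:**
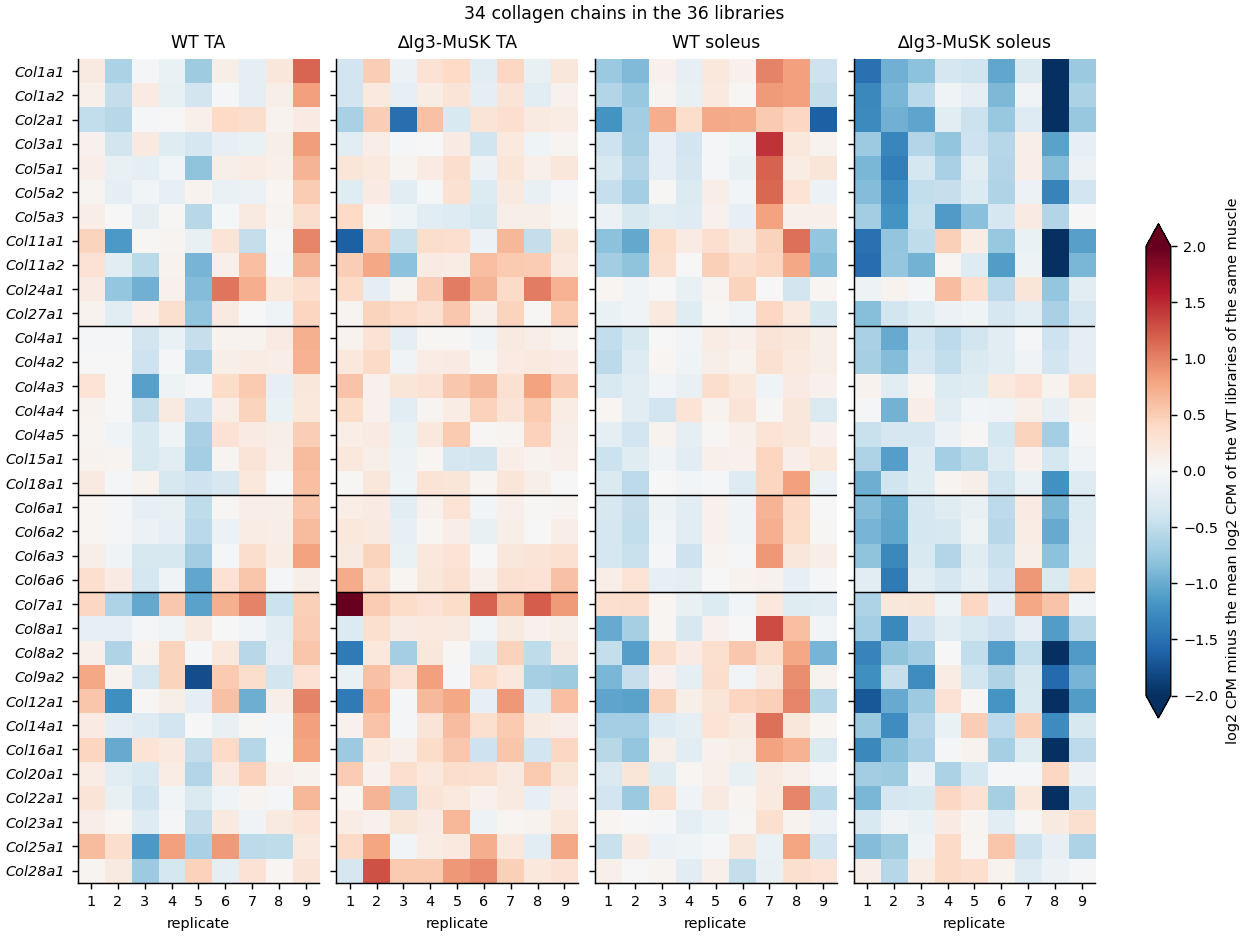
Each square is 1 of the 34 chains tested in the soleus (rows) in 1 library (columns, numbered by replicate), colored by its log2 CPM minus the mean log2 CPM of the 9 WT libraries of the same muscle; the color scale runs from -2 to 2 and stronger values share the end color. Most squares of ∆Ig3-MuSK soleus are blue, deepest in replicate 8, while WT soleus replicate 7 and WT TA replicate 9 are red for most chains.

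The type I chains are the main component of muscle and tendon fibrils. In the soleus, Col1a1 (chr11:94936224-94953042, GRCm38) was at 150.3, 292 and 545.8 CPM in WT soleus and 44.4, 157 and 225 CPM in ∆Ig3-MuSK soleus, in the order lowest, median and highest of 9 libraries that all triplets below share. In the TA it was at 82.6, 133 and 302 CPM in WT TA and 104, 158 and 191 CPM in ∆Ig3-MuSK TA. All 9 ∆Ig3-MuSK soleus libraries lay below the WT median and 4 below the lowest WT library, while the TA groups overlapped throughout. The log2 fold change was -0.97 ± 0.28 (± SE; adjusted p = 0.0832) in the soleus and 0.036 ± 0.19 (adjusted p = 0.92) in the TA. The soleus value was -0.84, adjusted p = 0.0907, without ∆Ig3-MuSK replicate 8, and -0.81, adjusted p = 0.145, without WT replicate 7. Col1a2, its partner in the type I trimer (chr6:4504814-4541544), was at 199, 339 and 605 CPM in WT soleus and 64.5, 215 and 318 CPM in ∆Ig3-MuSK soleus. Its log2 fold change was -0.75 ± 0.27 (adjusted p = 0.142) in the soleus, with 4 of 9 libraries below the WT range, and -0.03 ± 0.14 in the TA, where it was at 129, 177 and 318 CPM in WT TA and 137, 189.9 and 215 CPM in ∆Ig3-MuSK TA.

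Col3a1, which forms homotrimers that mix with type I in pliable tissue (chr1:45311538-45349706), was at 159, 238 and 684 CPM in WT soleus and 102, 168 and 274 CPM in ∆Ig3-MuSK soleus. One library set the top of the WT range, and the log2 fold change of -0.70 ± 0.24 (adjusted p = 0.133) became -0.40, adjusted p = 0.236, without WT replicate 7. In the TA it was at 174, 204 and 399 CPM in WT TA and 169, 223 and 257 CPM in ∆Ig3-MuSK TA, with a log2 fold change of -0.055 ± 0.13 (adjusted p = 0.807). Exons of Col3a1 overlap those of an annotated microRNA gene on the same strand by 141 bases, so that some of its reads could be assigned elsewhere.

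Type V chains, which seed type I fibrils, all had estimates below 0 in the soleus. Col5a2, the chain that most type V trimers share with Col5a1, was at 27.5, 42.1 and 97.1 CPM in WT soleus and 17.3, 31.3 and 40.3 CPM in ∆Ig3-MuSK soleus, a log2 fold change of -0.70 ± 0.21 (adjusted p = 0.0951), and of -0.48, adjusted p = 0.151, without WT replicate 7. All 9 of the ∆Ig3-MuSK libraries were below the WT median. Col5a1 was at 28.3, 38.5 and 96.4 CPM in WT soleus and 16.2, 28.4 and 46.6 CPM in ∆Ig3-MuSK soleus (-0.59 ± 0.22, adjusted p = 0.153), and this change was -0.37, adjusted p = 0.285, without WT replicate 7. Col5a3, the third type V chain, was at 31.8, 36.6 and 69.2 CPM in WT soleus and 17.3, 26.6 and 44.3 CPM in ∆Ig3-MuSK soleus (-0.55 ± 0.18, adjusted p = 0.115), where 7 of the 9 ∆Ig3-MuSK libraries lay under every WT library, the most of any chain. Without WT replicate 7 the Col5a3 estimate was -0.41, adjusted p = 0.2. In the TA the changes were 0.12 ± 0.12 for Col5a1, -0.034 ± 0.093 for Col5a2 and -0.022 ± 0.10 for Col5a3.

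The chains best known from cartilage fibrils were low but measured. Col2a1, the main cartilage fibril chain, was at 0.636, 2.63 and 3.36 CPM in WT soleus and 0.0226, 1.17 and 1.70 CPM in ∆Ig3-MuSK soleus, a log2 fold change of -1.05 ± 0.37 (adjusted p = 0.133). Col11a2, a type XI chain, was at 11.5, 26.1 and 35.7 CPM in WT soleus and 0.927, 11.1 and 21.5 CPM in ∆Ig3-MuSK soleus (-0.88 ± 0.34, adjusted p = 0.174), with 5 of 9 libraries below the WT range. Col11a1, also of type XI, was at 6.88, 15.9 and 30.0 CPM in WT soleus and 0.158, 8.29 and 19.5 CPM in ∆Ig3-MuSK soleus and missed the unadjusted threshold (-0.71 ± 0.41, adjusted p = 0.367). Replicate 8 of the ∆Ig3-MuSK soleus was the lowest for all 3, and without it the change in Col2a1 was -0.89, adjusted p = 0.128, and that in Col11a2 was -0.73, adjusted p = 0.148. Without WT replicate 7 they were -1.01, adjusted p = 0.201, and -0.84, adjusted p = 0.251. In the TA, Col2a1 was at 0.131, 0.202 and 0.254 CPM in WT TA and 0.0679, 0.218 and 0.288 CPM in ∆Ig3-MuSK TA. Col11a2 was at 2.42, 4.87 and 7.42 CPM in WT TA and 2.62, 6.48 and 7.92 CPM in ∆Ig3-MuSK TA, and neither change passed an unadjusted p of 0.05.

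The remaining fibrillar chains, Col24a1 and Col27a1, are minor chains known from developing bone and cartilage. Col27a1 was at 1.51, 1.80 and 2.51 CPM in WT soleus and 1.04, 1.49 and 1.78 CPM in ∆Ig3-MuSK soleus, a log2 fold change of -0.37 ± 0.12 (adjusted p = 0.109), with 5 of 9 below the WT range. In the TA the estimate had the other sign, at 1.57, 2.85 and 3.69 CPM in WT TA and 2.79, 3.55 and 3.96 CPM in ∆Ig3-MuSK TA, a log2 fold change of 0.29 ± 0.12 (adjusted p = 0.175). Col24a1 was at 2.02, 2.63 and 3.57 CPM in WT soleus and 1.54, 2.57 and 4.03 CPM in ∆Ig3-MuSK soleus, where its estimate of -0.0058 ± 0.15 had an interval from -0.30 to 0.29 (1.96 SE each way), and at 3.58, 7.87 and 14.7 CPM in WT TA and 6.20, 9.82 and 14.3 CPM in ∆Ig3-MuSK TA (0.40 ± 0.24, adjusted p = 0.287).

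**Figure D3:**
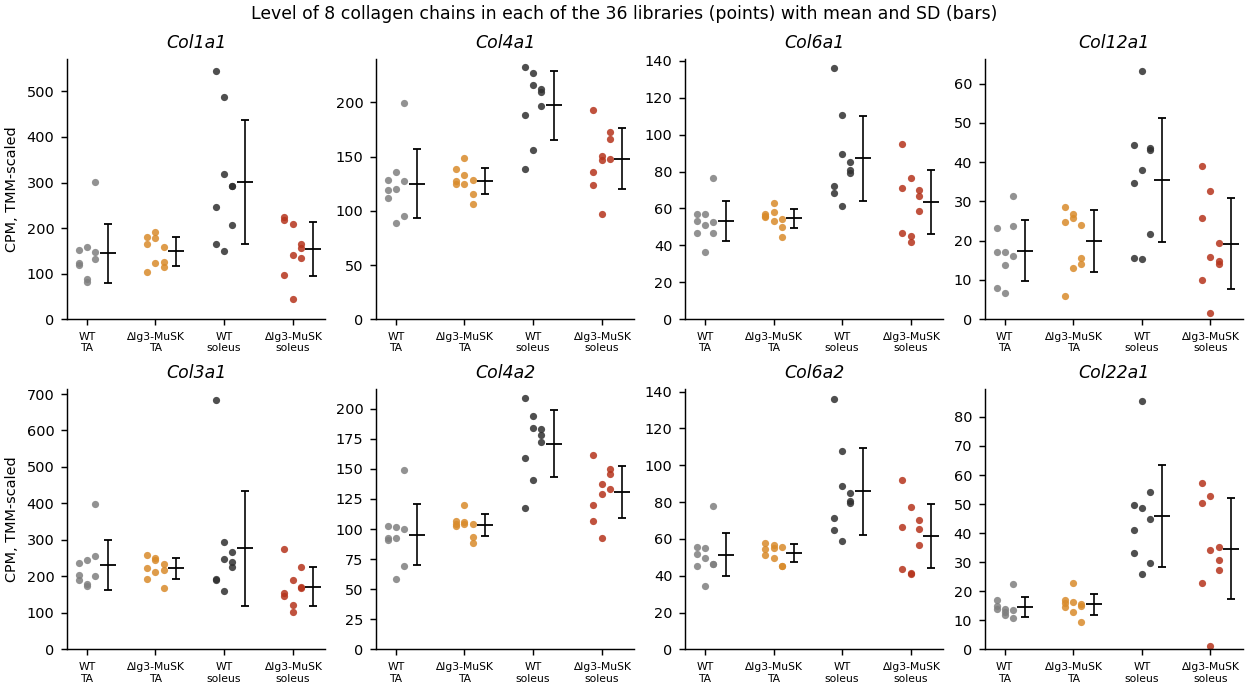
Level of the 2 chains of each class with the highest level per length (y axis, TMM-scaled CPM from 0; each point is 1 library, bars are mean and SD of 9). For Col1a1 the ∆Ig3-MuSK soleus libraries lie between 44.4 and 225 CPM, all below the WT soleus median of 292, while the TA groups share their range.

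The smallest adjusted p-values of any chain in the soleus belonged to the ubiquitous basement membrane chains Col4a1 and Col4a2, which form a trimer together. Col4a1 was at 139, 209.6 and 233 CPM in WT soleus and 97.2, 148 and 193 CPM in ∆Ig3-MuSK soleus, a log2 fold change of -0.43 ± 0.12 (adjusted p = 0.0723). Col4a2 was at 118, 178 and 209 CPM in WT soleus and 93.0, 133 and 161 CPM in ∆Ig3-MuSK soleus, a log2 fold change of -0.40 ± 0.11 (adjusted p = 0.0724). All 9 ∆Ig3-MuSK libraries were below the WT median for both chains, and the ranges overlapped. Without WT replicate 7 the change in Col4a1 was -0.39, adjusted p = 0.116, and that in Col4a2 was -0.35, adjusted p = 0.12. In the TA, Col4a1 was at 88.3, 119.9 and 199 CPM in WT TA and 107, 127 and 149 CPM in ∆Ig3-MuSK TA (0.029 ± 0.11, adjusted p = 0.889). Col4a2 was at 58.8, 92.9 and 149 CPM in WT TA and 88.4, 104 and 120.3 CPM in ∆Ig3-MuSK TA (0.12 ± 0.12, adjusted p = 0.543).

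These genes lie head to head on chromosome 8, Col4a1 at chr8:11198423-11312826 on the minus strand and Col4a2 at chr8:11312805-11449287 on the plus strand, and their first exons overlap by 22 bases. The shared bases at chr8:11312805-11312826, written on the plus strand, are shown because reads there cannot be assigned in libraries without strand information.
Col4a1/Col4a2: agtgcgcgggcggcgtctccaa

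Col15a1 and Col18a1, collagens of the outer basement membrane zone, had estimates of the same sign. Col15a1 was at 40.1, 57.6 and 72.6 CPM in WT soleus and 25.3, 42.3 and 57.5 CPM in ∆Ig3-MuSK soleus (-0.42 ± 0.14, adjusted p = 0.112). Col18a1, the source of endostatin, was at 12.9, 17.9 and 32.6 CPM in WT soleus and 8.02, 15.5 and 20.05 CPM in ∆Ig3-MuSK soleus (-0.39 ± 0.18, adjusted p = 0.257). The Col18a1 change missed the unadjusted threshold when any of several libraries was left out, among them WT replicate 7 (-0.33, adjusted p = 0.391) and ∆Ig3-MuSK replicate 8 (-0.31, adjusted p = 0.359), and it was -0.25 without WT replicate 8. TA estimates were -0.042 ± 0.13 and 0.094 ± 0.11.

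The other type IV chains, which include those found in the synaptic basement membrane of muscle, were at lower levels, and none reached an unadjusted p of 0.05 in the soleus. Col4a5 was at 2.83, 3.87 and 4.48 CPM in WT soleus and 2.31, 2.93 and 5.01 CPM in ∆Ig3-MuSK soleus (-0.19 ± 0.13, adjusted p = 0.437). Col4a4 was at 1.42, 1.92 and 2.24 CPM in WT soleus and 0.963, 1.78 and 2.03 CPM in ∆Ig3-MuSK soleus (-0.13 ± 0.13, adjusted p = 0.614) and Col4a3 at 1.34, 1.58 and 2.10 CPM in WT soleus and 1.37, 1.73 and 2.07 CPM in ∆Ig3-MuSK soleus (0.018 ± 0.11, adjusted p = 0.951). In the TA, Col4a3 was at 1.06, 2.26 and 3.26 CPM in WT TA and 2.41, 3.19 and 3.93 CPM in ∆Ig3-MuSK TA, a log2 fold change of 0.40 ± 0.15 (adjusted p = 0.163), with all 9 ∆Ig3-MuSK libraries at or above the WT median. Exons of Col4a3 overlap a noncoding gene on the opposite strand by 563 bases, and without strand information these reads cannot be told apart. Col4a6 was at most 0.392 CPM in any library, and its genotype comparison was tested in the TA only (0.20 ± 0.28, adjusted p = 0.674).

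Type VI chains are known for mutations that cause inherited muscle disease, and the 3 chains of the common trimer had estimates within 1 SE of each other. Col6a1 (chr10:76708792-76726168) was at 61.2, 81.0 and 136 CPM in WT soleus and 41.7, 66.8 and 94.6 CPM in ∆Ig3-MuSK soleus, a log2 fold change of -0.47 ± 0.17 (adjusted p = 0.14). Col6a2, its neighbor on chromosome 10 and partner in the trimer (chr10:76595762-76623630), was at 59.0, 80.4 and 136 CPM in WT soleus and 40.7, 65.4 and 92.2 CPM in ∆Ig3-MuSK soleus, a log2 fold change of -0.49 ± 0.17 (adjusted p = 0.139). Col6a3, the long chain that completes the trimer, was at 40.2, 53.9 and 100.2 CPM in WT soleus and 22.5, 40.3 and 59.2 CPM in ∆Ig3-MuSK soleus, a log2 fold change of -0.53 ± 0.18 (adjusted p = 0.129). Without WT replicate 7 these estimates were -0.36 for Col6a1, -0.37 for Col6a2 and -0.38 for Col6a3. For each of the 3 chains, 4 ∆Ig3-MuSK libraries were below the WT range and 8 below the WT median.

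Of the alternative type VI chains, Col6a6 was at 2.43, 2.81 and 3.37 CPM in WT soleus and 1.05, 2.41 and 5.07 CPM in ∆Ig3-MuSK soleus (-0.11 ± 0.19, adjusted p = 0.811). Its ∆Ig3-MuSK libraries were both below and above the WT range, 6 and 2 of 9. Col6a5 was at 0.0207, 0.0839 and 0.219 CPM in WT soleus and 0.0226, 0.0739 and 0.171 CPM in ∆Ig3-MuSK soleus, and its genotype comparison was tested in the TA only, at 0.0936, 0.260 and 0.633 CPM in WT TA and 0.128, 0.307 and 0.512 CPM in ∆Ig3-MuSK TA (-0.036 ± 0.30, adjusted p = 0.949). In the TA, Col6a1, Col6a2 and Col6a3 had estimates of 0.042 ± 0.10, 0.026 ± 0.11 and 0.14 ± 0.14.

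The remaining chains include those of tendon, fascia and the muscle ends. Col12a1, a fibril-bound collagen of tendon and fascia, was at 15.3, 38.1 and 63.2 CPM in WT soleus and 1.72, 15.9 and 39.0 CPM in ∆Ig3-MuSK soleus, a log2 fold change of -0.89 ± 0.37 (adjusted p = 0.21). This change was -0.73, adjusted p = 0.209, without ∆Ig3-MuSK replicate 8 and -0.84, adjusted p = 0.289, without WT replicate 7. Col22a1, which is found at the junction of muscle and tendon, was at 25.8, 44.7 and 85.3 CPM in WT soleus and 1.02, 34.1 and 57.4 CPM in ∆Ig3-MuSK soleus (-0.41 ± 0.38, adjusted p = 0.586), and its lowest library was again replicate 8. Without that library the Col22a1 estimate was -0.25, adjusted p = 0.601. Col14a1, related to Col12a1, was at 7.79, 12.8 and 26.7 CPM in WT soleus and 5.20, 8.65 and 17.6 CPM in ∆Ig3-MuSK soleus (-0.41 ± 0.26, adjusted p = 0.42).

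A further 4 chains of this class had an unadjusted p under 0.05 in the soleus. Col8a1, a network-forming chain of vessel walls, was at 7.63, 15.5 and 38.0 CPM in WT soleus and 6.26, 11.5 and 13.4 CPM in ∆Ig3-MuSK soleus (-0.70 ± 0.24, adjusted p = 0.133), and at -0.45, adjusted p = 0.249, without WT replicate 7. Its partner Col8a2 was at 4.30, 11.4 and 15.7 CPM in WT soleus and 0.226, 5.25 and 9.22 CPM in ∆Ig3-MuSK soleus (-0.99 ± 0.34, adjusted p = 0.132). All 9 ∆Ig3-MuSK libraries were below the WT median for both. Col9a2, which decorates cartilage fibrils, was at 0.496, 0.976 and 1.78 CPM in WT soleus and 0.316, 0.617 and 1.03 CPM in ∆Ig3-MuSK soleus (-0.72 ± 0.23, adjusted p = 0.109). Col16a1, a minor fibril-associated chain, was at 7.59, 13.8 and 22.7 CPM in WT soleus and 2.76, 8.23 and 13.7 CPM in ∆Ig3-MuSK soleus (-0.68 ± 0.25, adjusted p = 0.155).

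TA estimates were 0.095 ± 0.093 for Col8a1, -0.15 ± 0.20 for Col8a2, 0.02 ± 0.25 for Col9a2, 0.18 ± 0.28 for Col12a1, 0.27 ± 0.13 for Col14a1, 0.035 ± 0.21 for Col16a1 and 0.091 ± 0.14 for Col22a1, none with an unadjusted p under 0.05.

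Other chains had estimates near or above 0 in the soleus, or their smaller p in the TA. Col7a1, the anchoring fibril collagen of skin, was at 2.56, 2.98 and 3.95 CPM in WT soleus and 2.01, 3.62 and 5.28 CPM in ∆Ig3-MuSK soleus (0.16 ± 0.15, adjusted p = 0.585). In the TA it was at 5.19, 14.5 and 21.7 CPM in WT TA and 13.3, 17.2 and 44.3 CPM in ∆Ig3-MuSK TA, a log2 fold change of 0.76 ± 0.28 (adjusted p = 0.163). Col28a1, known from peripheral nerve, was at 0.897, 1.30 and 1.56 CPM in WT soleus and 0.839, 1.31 and 1.63 CPM in ∆Ig3-MuSK soleus (0.0083 ± 0.13, adjusted p = 0.982). In the TA it was at 0.539, 0.919 and 1.22 CPM in WT TA and 0.703, 1.27 and 2.16 CPM in ∆Ig3-MuSK TA, with 6 of 9 ∆Ig3-MuSK libraries above the WT range and a change of 0.56 ± 0.18 (adjusted p = 0.152). Col20a1, a fibril-associated chain, had an estimate of 0.28 ± 0.11 (adjusted p = 0.164) in the TA, where it was at 2.00, 3.22 and 4.12 CPM in WT TA and 3.18, 3.74 and 4.31 CPM in ∆Ig3-MuSK TA, and of -0.23 ± 0.13 (adjusted p = 0.342) in the soleus, where it was at 4.35, 5.47 and 6.30 CPM in WT soleus and 3.26, 4.90 and 7.10 CPM in ∆Ig3-MuSK soleus. It shares 79 exonic bases with another gene on its strand. The membrane-bound chains Col23a1 (-0.0065 ± 0.084) and Col25a1 (-0.20 ± 0.20), the latter needed for motor innervation, had adjusted p-values of 0.978 and 0.638 in the soleus. Col23a1 was at 3.33, 3.84 and 4.78 CPM in WT soleus and 3.12, 3.91 and 4.77 CPM in ∆Ig3-MuSK soleus, and Col25a1 at 0.410, 0.524 and 0.962 CPM in WT soleus and 0.304, 0.497 and 0.815 CPM in ∆Ig3-MuSK soleus, both with overlapping groups. Col19a1, a fibril-associated chain too low to test in the soleus, was at 0.131, 0.387 and 0.602 CPM in WT TA and 0.326, 0.484 and 0.645 CPM in ∆Ig3-MuSK TA (0.37 ± 0.22, adjusted p = 0.297).

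Summed over all 37 chains, the level was 1232, 1861 and 3286 CPM in WT soleus, 788, 1305 and 1815 CPM in ∆Ig3-MuSK soleus, 834, 1171 and 1985 CPM in WT TA and 1049, 1259 and 1399 CPM in ∆Ig3-MuSK TA. The 11 fibrillar chains made up 619.9, 1034 and 2153 CPM of this in WT soleus and 300.0, 675 and 986 CPM in ∆Ig3-MuSK soleus. The 8 basement membrane chains made up 318, 469 and 547.1 CPM and 235, 349 and 438 CPM. All these ranges overlapped between genotypes. Among soleus groups, fibrillar chains held a median of 49.4% of the level per length in WT and 45.7% in ∆Ig3-MuSK, and basement membrane chains 28.0% and 30.6%.

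Compared per kilobase of annotated exon, 5 chains (Col1a1, Col1a2, Col3a1, Col4a1 and Col4a2) held 55.8% to 66.6% of the summed level in every library. In WT soleus the order was Col1a1 at 45.8 ± 20.7 (mean ± SD, CPM per kilobase, n = 9), Col1a2 at 28.9 ± 12.0, Col3a1 at 28.3 ± 16.1, Col4a1 at 26.5 ± 4.26 and Col4a2 at 25.8 ± 4.20, and each differed from the next by less than the larger SD of the pair. In ∆Ig3-MuSK soleus Col1a1 stayed first at 23.6 ± 9.03, followed by Col4a1 at 19.9 ± 3.74 and Col4a2 at 19.7 ± 3.26, with differences again below the larger SD. In WT TA, Col3a1 at 23.6 ± 7.04 and Col1a1 at 22.1 ± 9.85 came first. The order within this top group depends on the length used, since the longest transcript in place of all exons puts Col1a2 above Col1a1 in each group. Col4a6, Col6a5, Col19a1 and Col25a1 were among the lowest in every group.

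Ratios of chains within a library do not depend on how libraries are scaled, and 8 ratios were tested in each muscle by exact permutation of the 18 libraries (2-sided, 48620 assignments, Benjamini-Hochberg adjustment over 16 tests). The ratio of Col1a1 to Col1a2 per kilobase was 1.40, 1.58 and 1.71 in WT soleus and 1.29, 1.34 and 1.52 in ∆Ig3-MuSK soleus, and 6 of the 9 ∆Ig3-MuSK libraries lay under the whole WT range. It was lower in ∆Ig3-MuSK (-0.19 on the log2 scale, exact permutation p = 0.000658, adjusted p = 0.0105). In the TA the ratio was 1.13, 1.45 and 1.80 in WT and 1.39, 1.57 and 1.76 in ∆Ig3-MuSK (0.10 on the log2 scale, exact permutation p = 0.189, adjusted p = 0.302). The size of the ratio depends on the chosen length (a WT soleus median of 0.751 with the longest transcripts), but its difference between genotypes does not.

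Col4a1 to Col4a2 was lower in ∆Ig3-MuSK than in WT TA, at 1.06, 1.09 and 1.18 against 1.09, 1.15 and 1.33 (-0.10 on the log2 scale, exact permutation p = 0.00613, adjusted p = 0.049). This call was lost when medians replaced means (adjusted p = 0.213) and in 15 of 18 tests that left out 1 library. The ratio of Col6a1 to Col1a1 in the soleus was 0.341, 0.421 and 0.619 in WT and 0.440, 0.636 and 1.53 in ∆Ig3-MuSK (0.50 on the log2 scale, exact permutation p = 0.0137, adjusted p = 0.0733). Col4a1 to Col1a1 in the soleus did not pass either (0.55 on the log2 scale, exact permutation p = 0.0585, adjusted p = 0.187). Col6a1 to Col6a2, partners in a trimer, stayed within 1.87 to 2.07 over all 18 soleus libraries (0.027 on the log2 scale, exact permutation p = 0.152, adjusted p = 0.283).

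**Figure D4:**
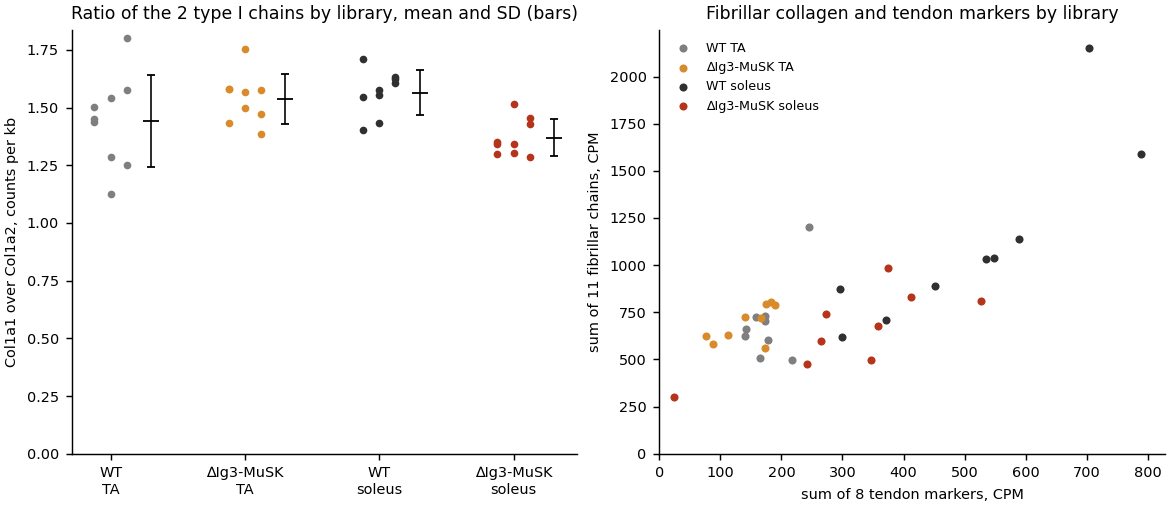
Left, ratio of Col1a1 to Col1a2 (y axis, counts per kilobase of exon; each point is 1 library, bars are mean and SD of 9) in the 4 groups. Right, summed CPM of the 11 fibrillar chains (y axis) against summed CPM of 8 tendon markers (x axis) for the 36 libraries; the lowest ∆Ig3-MuSK soleus library has 24.7 CPM of tendon markers and WT soleus libraries reach 789.

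Soleus and TA differed for most chains in WT, with the library kit differing alongside. Of 34 chains tested, 24 were higher and 6 lower in WT soleus than in WT TA, where 57.7% of all genes were called, 30% higher and 27.6% lower. The largest differences were for the cartilage-type fibrillar chains Col2a1 (3.54 ± 0.32, adjusted p = 2.79e-09), Col11a2 (2.21 ± 0.24, adjusted p = 5.04e-08) and Col11a1 (2.05 ± 0.27, adjusted p = 1.07e-06), and for Col8a1 (2.22 ± 0.23, adjusted p = 3.55e-08) and Col8a2 (1.99 ± 0.23, adjusted p = 1.24e-07). All 9 WT soleus libraries were above the highest WT TA library for 10 chains, which also included Col4a5, Col20a1, Col22a1, Col23a1 and Col25a1, beside 15.1% of all genes tested. Col22a1, for example, was at 10.8, 13.8 and 22.5 CPM in WT TA, a difference of 1.66 ± 0.19 (adjusted p = 1.08e-07).

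Lower in WT soleus than in WT TA were Col7a1 (-1.98 ± 0.25, adjusted p = 4.50e-07), Col24a1 (-1.56 ± 0.23, adjusted p = 3.77e-06), Col6a6 (-1.33 ± 0.15, adjusted p = 6.06e-08), Col4a4 (-0.78 ± 0.12, adjusted p = 1.01e-05), Col27a1 (-0.55 ± 0.13, adjusted p = 0.00097) and Col4a3 (-0.49 ± 0.15, adjusted p = 0.00731). Col7a1, Col24a1 and Col4a4 had all 9 soleus libraries below the TA range, beside 14.5% of all genes tested. The type IV chains thus split: Col4a1 (0.66 ± 0.13), Col4a2 (0.84 ± 0.14) and Col4a5 (1.09 ± 0.12) were higher in the soleus, and Col4a3 and Col4a4 lower. Col3a1 (0.27 ± 0.23, adjusted p = 0.314), Col5a1 (0.35 ± 0.20, adjusted p = 0.129), Col5a3 (-0.17 ± 0.13, adjusted p = 0.277) and Col6a3 (0.083 ± 0.18, adjusted p = 0.701) did not pass. Col1a1 was higher by 1.06 ± 0.26 (adjusted p = 0.00105) and Col6a1 by 0.72 ± 0.14 (adjusted p = 0.000134).

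In ∆Ig3-MuSK mice, 15 of 36 chains tested were higher and 11 lower in the soleus than in the TA, where 55.9% of all genes were called, 27.9% higher and 28% lower. Col1a1 (0.061 ± 0.22, adjusted p = 0.816), Col1a2 (0.25 ± 0.21, adjusted p = 0.311) and Col12a1 (-0.036 ± 0.36, adjusted p = 0.935) did not pass. Col3a1 (-0.37 ± 0.15, adjusted p = 0.0286), Col5a1 (-0.36 ± 0.15, adjusted p = 0.0343), Col5a3 (-0.69 ± 0.16, adjusted p = 0.00052) and Col6a3 (-0.58 ± 0.13, adjusted p = 0.000635) were called lower in the soleus, and the calls of Col3a1 and Col5a1 were lost when any of ∆Ig3-MuSK soleus replicates 2, 4 and 8, or some other single libraries, was left out and in a single fit over all 36 libraries (adjusted p = 0.10 and 0.0808). Of the chains called higher, Col11a1, Col8a2 and Col22a1 did not pass with limma-voom, and Col20a1 did not pass with the label number as a block or when any of several single libraries was left out. Col2a1 (2.44 ± 0.36), Col8a1 (1.44 ± 0.13), Col23a1 (0.89 ± 0.10) and Col25a1 (1.14 ± 0.21) were called higher, and all 9 soleus libraries were above the TA range for the last 3 of these and no other chain, beside 15.2% of all genes tested. All 9 were below the TA range for 7 chains (Col4a3, Col4a4, Col6a6, Col7a1, Col19a1, Col24a1 and Col27a1), beside 15.1% of all genes tested. Col19a1, tested in this genotype, was called lower at -2.17 ± 0.24 (adjusted p = 4.94e-08). The test of whether these muscle differences differ between genotypes is the interaction given above, in which no chain was called: Col1a1 had an estimate of -0.99 ± 0.35 (adjusted p = 0.107), Col3a1 of -0.63 ± 0.28 (adjusted p = 0.163) and Col6a3 of -0.66 ± 0.23 (adjusted p = 0.108).

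**Figure D5:**
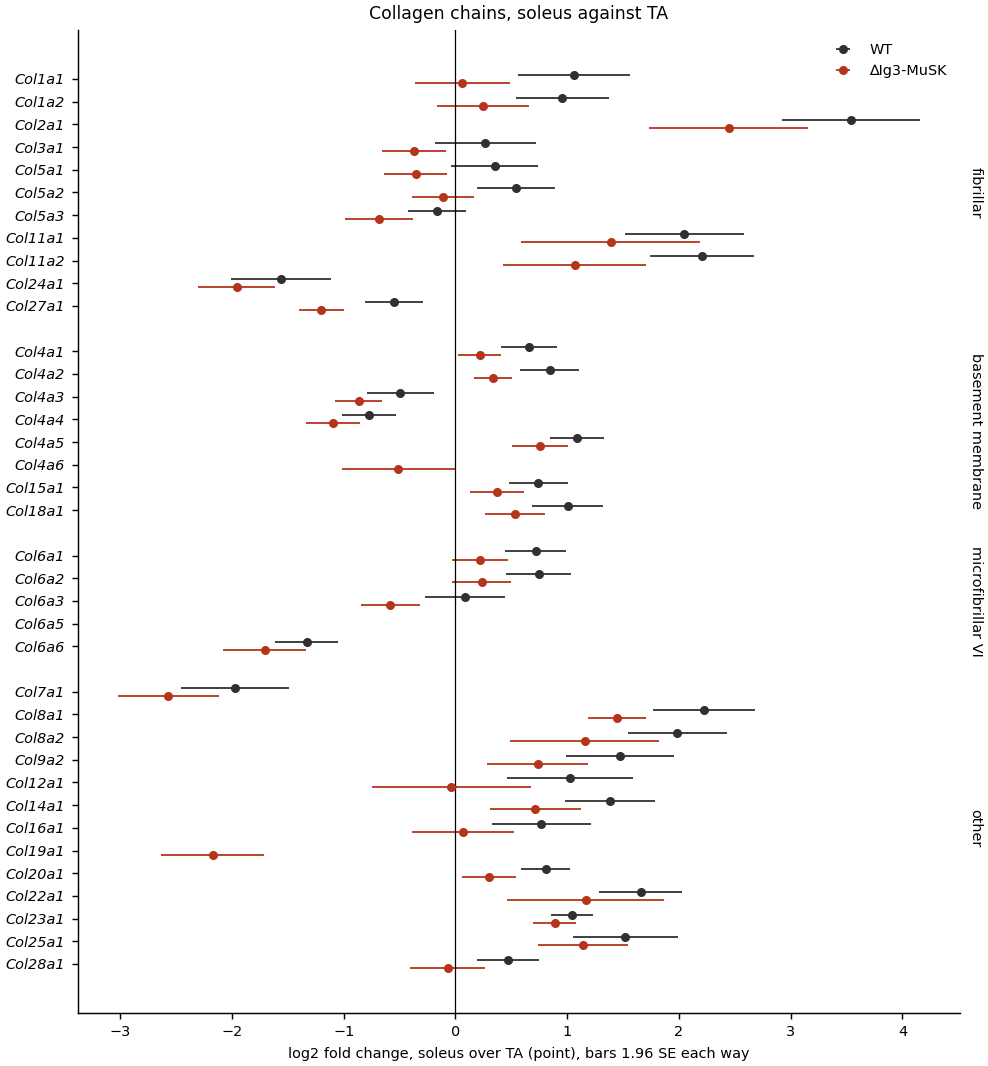
Log2 fold change of each collagen chain in soleus over TA (x axis, log2 units; points, edgeR estimate; bars, 1.96 SE each way) in WT (black) and ∆Ig3-MuSK (red), with no point where a chain was not tested. Points reach from -2.57 for Col7a1 in ∆Ig3-MuSK to 3.54 for Col2a1 in WT.

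The genes that make, cross-link and bind collagen were counted in the same way. Over all genes tested in the soleus, 0.586% were called lower, and 10.1% were lower and 8.48% higher at an unadjusted p under 0.05. Of 31 genes of collagen processing (hydroxylation, folding, secretion, cleavage and cross-linking), 1 was called lower in the soleus and 19 were lower at an unadjusted p under 0.05, with 0 higher and a median log2 fold change of -0.31. The gene called was Tram2, a factor for type I collagen synthesis in the endoplasmic reticulum (-0.44 ± 0.11, adjusted p = 0.046). Serpinh1, the collagen chaperone Hsp47 (-0.45 ± 0.12, adjusted p = 0.0602), and Lox, a cross-linking enzyme (-1.04 ± 0.29, adjusted p = 0.0725), came next by p. Of 19 fibril-binding proteoglycans and matrix partners, 0 were called and 9 were lower at an unadjusted p under 0.05, led by Sparc (-0.41 ± 0.15, adjusted p = 0.14), Bgn (-0.55 ± 0.20, adjusted p = 0.15) and Hspg2 (-0.31 ± 0.11, adjusted p = 0.153). Fmod and Kera of this list are also among the tendon markers below, and Lum is also a fibroblast marker. Of 7 collagen receptors, 1 was called lower, the integrin subunit Itga2 (-1.49 ± 0.35, adjusted p = 0.0405), followed by Itga11 (-0.57 ± 0.17, adjusted p = 0.089) and Ddr2 (-0.25 ± 0.14, adjusted p = 0.348).

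In the TA, none of these genes was called. At an unadjusted p under 0.05, 1 processing gene was higher and 3 lower, 3 matrix partners were higher and 2 lower, and 2 receptors were higher and 0 lower. Over all genes tested in the TA, 12.2% were higher and 12% lower at that p. The shares lower were 9.68% of processing genes and 10.5% of matrix partners, near that of all genes. The smallest p-value of each list was that of the receptor subunit Itga10 (0.53 ± 0.16, adjusted p = 0.145), Tnxb, a tenascin that binds fibrils (0.44 ± 0.16, adjusted p = 0.163), and P4ha1, a prolyl hydroxylase (-0.15 ± 0.056, adjusted p = 0.163).

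Markers of the cell types that a whole muscle can hold were set beside these results. For each soleus list below, the shares over all genes were 50.6% with an estimate below 0 and 0.586% called lower. At an unadjusted p under 0.05 they were 10.1% lower and 8.48% higher. In the soleus, 8 of 8 tendon markers had estimates below 0 in ∆Ig3-MuSK and 4 an unadjusted p under 0.05, led by Scx (-0.48 ± 0.14, adjusted p = 0.0898), with a median of -0.65. Their summed level was 297, 535 and 789 CPM in WT soleus and 24.7, 347 and 526.1 CPM in ∆Ig3-MuSK soleus. Of 7 cartilage markers, which share Comp with the tendon list, 4 could be tested and 3 were lower at an unadjusted p under 0.05, led by Sox9 (-0.66 ± 0.21, adjusted p = 0.107). Their sum was 31.3, 55.3 and 70.3 CPM in WT and 5.94, 25.9 and 46.0 CPM in ∆Ig3-MuSK, and Matn1 was at 0 in every ∆Ig3-MuSK soleus library and had at most 1 count in any other. Their part in the collagen values was not tested.

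For 10 fibroblast markers the sum was 818, 952 and 1213 CPM in WT soleus and 586, 869.5 and 1273 CPM in ∆Ig3-MuSK soleus, with 0 markers at an unadjusted p under 0.05 and a median of -0.13. Endothelial markers summed to 327, 377 and 424 and 287, 338 and 392 CPM, with 2 of 7 lower at an unadjusted p under 0.05, led by Kdr (-0.42 ± 0.12, adjusted p = 0.0856). Among 7 pericyte and smooth muscle markers, Acta2 was called lower (-0.38 ± 0.093, adjusted p = 0.0496), 3 were lower at an unadjusted p under 0.05, and the sums were 668, 768 and 796 and 640.4, 779 and 802 CPM. None of 8 macrophage markers (76.8, 90.7 and 189 against 23.0, 83.6 and 127 CPM) and none of 6 adipocyte markers (50.4, 65.1 and 281 against 19.6, 138 and 252 CPM) reached that p. Estimates were below 0 for 9 of 10 fibroblast, 6 of 7 endothelial, 5 of 7 pericyte and smooth muscle and 7 of 8 macrophage markers. All 6 adipocyte markers had estimates above 0. The medians were -0.38 for macrophage and 0.54 for adipocyte markers.

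Of 9 immediate early genes, which respond to handling of tissue, Egr3 was called lower (-1.56 ± 0.38, adjusted p = 0.0459) and 5 were lower at an unadjusted p under 0.05, with sums of 70.6, 152 and 192 and 62.2, 90.5 and 156 CPM. Of 8 muscle fiber markers 1, Ckm, was higher at an unadjusted p under 0.05 (0.25 ± 0.10, adjusted p = 0.2), from sums of 52410.3, 53837 and 66854 CPM in WT and 55429, 61313 and 74809.6 CPM in ∆Ig3-MuSK. Estimates were below 0 for all 9 immediate early genes and above 0 for 6 of 8 muscle fiber markers. The part of these cell types in the collagen values was not tested.

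In the TA, 8 of 8 tendon markers were likewise below 0, 3 with an unadjusted p under 0.05, and summed to 141, 172 and 245 CPM in WT and 75.9, 166 and 189.9 CPM in ∆Ig3-MuSK. Over all genes in the TA, 50.7% were below 0, and 12% were lower and 12.2% higher at that p. Between muscles in WT, 7 of 8 tendon markers and 6 of 6 adipocyte markers were called higher in the soleus, beside 30% of all genes. So were 6 of 7 endothelial and 5 of 7 pericyte and smooth muscle markers and 8 of 9 immediate early genes. Of fibroblast markers 4 of 10 were, and of macrophage markers 2 of 8. Called lower were 1 endothelial marker, 2 fibroblast markers and 1 immediate early gene. Of the pericyte and smooth muscle markers in the TA, 4 of 7 were higher in ∆Ig3-MuSK at an unadjusted p under 0.05, led by Pdgfrb (0.30 ± 0.11, adjusted p = 0.163), and none was called.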

How the data were processed

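RNA-seq reads of 36 whole-muscle libraries were trimmed with Trimmomatic, aligned to GRCm38 (mm10) with GSNAP and counted per gene with htseq-count, with FastQC and SAMtools also named in the submitters' processing notes. Versions, annotation release and counting mode are not given in the sources used here, and the libraries were not strand-specific. The deposited files hold the raw counts of the authors per Ensembl gene in 1 table for each muscle, and 51633 of 51912 IDs were matched to symbols.

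Groups were taken from the labels, and the tables held 0 columns of other samples. From the counts, edgeR 4.0.16 (R 4.3.3; limma 3.58.1) fitted each comparison with TMM factors and the quasi-likelihood test on genes with a count of 10 in enough libraries and a total of 15. Each SE is an approximation, the absolute log2 fold change divided by the square root of that test's F statistic. A gene was called at an adjusted p under 0.05 and a 1.2-fold change, the thresholds of the study, whose own tool, DESeq2 (1.42.0 here), was run as an alternative. CPM per kilobase used the union of annotated exons. Chains with an unadjusted p under 0.05, and the 2 of each class with the highest level per length, are given in full, and of other lists up to 3 genes with the smallest p-values. The Schwann cell marker list is not reported here. The members and lists were chosen with earlier results of these data known. Other alternatives were normalization, the count filter, limma-voom, a replicate block, a single fit and leaving out each library. The p-values test differences between groups against the spread between libraries within groups. On simulated counts, 90.5% of 200 genes changed by 1 log2 unit were recovered for the soleus genotype comparison (19290 genes). For the interaction the share was 77.5%. The median estimate of the chains in the soleus was -0.45, and recovery of changes of that size was not simulated. Tables were arranged with Python 3.11.15 and pandas 2.3.3.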

Additional observations from a re-analysis of the deposited data

Results flagged for a closer look

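The level of each chain was examined in each group of 9 libraries for a lowest or highest library that stood far from the rest (Dixon's criterion). Of 148 combinations of chain and group, 21 held such a library, where chance gives about 1 in 20 groups, and the chains of a library are not independent of each other. In WT TA, replicate 9 was high for Col1a1 (302 CPM), Col1a2 (318 CPM), Col3a1 (399 CPM), Col5a2 (45.3 CPM) and Col14a1 (8.77 CPM), replicate 3 stood apart for Col4a3 (1.06 CPM) and replicate 5 for Col9a2 (0.0936 CPM). In WT soleus, replicate 7 was high for Col3a1 (684 CPM), Col5a1 (96.4 CPM) and Col5a3 (69.2 CPM).

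In ∆Ig3-MuSK soleus, replicate 8 was low for Col2a1 (0.0226 CPM), Col11a1 (0.158 CPM), Col11a2 (0.927 CPM), Col8a2 (0.226 CPM), Col12a1 (1.72 CPM) and Col22a1 (1.02 CPM), and replicate 2 stood apart for Col4a4 (0.963 CPM). In ∆Ig3-MuSK TA, replicate 1 stood apart for Col11a1 (1.12 CPM) and Col12a1 (5.90 CPM), replicate 3 for Col11a2 (2.62 CPM) and replicate 5 for Col23a1 (2.92 CPM).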

How the results depend on the processing

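In the soleus genotype comparison, the median over chains stayed below 0 under every alternative run, while the number of chains past the threshold varied. Against 0 with edgeR, the count of chains called lower in ∆Ig3-MuSK soleus was 3 with DESeq2, 4 with limma-voom and 3 with a single fit over all 36 libraries, and 0 to 7 when 1 library was left out. With the replicate number as a block it was 10. That number only orders the libraries within a group, and nothing in the labels pairs a WT with a ∆Ig3-MuSK library. Over all genes, 114 were called lower with edgeR, 324 with DESeq2, 390 with limma-voom, 193 with the single fit and 256 with the replicate block. For the replicate numbers, the correlation of deviations between libraries of equal number ran from -0.28 to 0.31 in the soleus and -0.13 to 0.39 in the TA. Its median was 0.0087 in the soleus and -0.0035 in the TA. It exceeded 0.1 in 3 of 9 soleus and 2 of 9 TA pairs. For the label numbers shared by soleus and TA libraries it was above 0 in every pair. It ran from 0.026 to 0.12 in WT and from 0.032 to 0.28 in ∆Ig3-MuSK, with 2 of 8 and 5 of 8 pairs over 0.1. The consensus correlation of libraries that share a label number was 0.127. These values cannot settle whether the label numbers name the same animals. With the label number as a replicate block, 25 chains were called higher and 6 lower in WT soleus against TA, and 14 and 11 in ∆Ig3-MuSK. Over all genes these counts were 5933 and 5301 of 19495 in WT and 5616 and 5556 of 19967 in ∆Ig3-MuSK. In the TA, the chains higher at an unadjusted p under 0.05 were 9 with the replicate block, beside 2786 of 20075 genes, and 4 to 10 when 1 library was left out. The single fit called 2 chains higher, where it called 485 of 20841 genes higher. In the interaction, DESeq2 called 3 chains lower, where it called 277 of 41704 genes lower. Leaving out 1 library gave 0 to 6 called and 12 to 27 lower at an unadjusted p under 0.05.

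Values near 0 changed sign. In the TA, Col3a1 was at 0.036 with limma-voom, and leaving out 1 library gave -0.045 to 0.24 for Col1a1, -0.10 to 0.080 for Col3a1, -0.028 to 0.14 for Col4a1, -0.018 to 0.12 for Col6a1 and -0.036 to 0.12 for Col6a2. Between muscles, leaving out 1 library gave -0.033 to 0.40 for Col3a1 in WT, and in ∆Ig3-MuSK -0.021 to 0.19 for Col1a1 (-0.034 with the replicate block) and -0.23 to 0.12 for Col12a1. For Musk in the interaction it gave -0.064 to 0.094, and limma-voom with the label number as a random replicate block gave -0.017.

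With medians in place of means, the log2 difference of Col4a1 to Col4a2 in the TA was -0.070 and no longer called, that of Col6a1 to Col1a1 in the soleus was 0.60 and called, and Col6a1 to Col6a2 in the TA (-0.0031) and Col6a3 to Col6a1 in the soleus (0.0091) changed sign. Leaving out 1 library gave, in the TA, -0.11 to -0.072 for Col4a1 to Col4a2, -0.0076 to 0.025 for Col6a1 to Col6a2, -0.11 to 0.030 for Col4a1 to Col1a1 and -0.12 to 0.031 for Col6a1 to Col1a1. In the soleus it gave 0.35 to 0.58 for Col6a1 to Col1a1. With the longest transcript as length, fibrillar chains held 56.8% and basement membrane chains 22.5% of the summed level. The cause of these changes was not tested. Chains under about 1 CPM, such as Col4a6 and Col6a5, are limited by counting.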
